A study of Mus musculus with 10 samples.

Results

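The 47 genes described here run the cell division cycle. They were taken as a fixed list of symbols in 3 classes. The 9 called regulators are cyclins and transcription factors that control the cycle, in G1 and S phase or, for Foxm1 and Mybl2, later. E2f7 and E2f8 among them are repressors. The 11 called S phase genes are genes of DNA replication and nucleotide supply. The 27 called mitotic genes are genes of G2, mitosis and cytokinesis. All 47 were present among the 24537 symbols of the count table, and 46 of them were among the 13909 genes abundant enough to test. Cdc25c, a phosphatase that activates Cdk1 at mitotic entry, was too low to test. Messenger RNA was sequenced from whole liver, 1 library for each of 10 male mice. Each mouse had received an adeno-associated virus of serotype 8 carrying saCas9, a compact Cas9 nuclease, behind the TBG promoter, which is active in hepatocytes, with a guide RNA. The guide targeted Rosa26, a neutral locus, in 3 young control mice (virus at 7 months, liver at 9 months) and in 3 old control mice (virus at 23 months, liver at 25 months). In 4 old mice (virus at 23 months, liver at 25 months) it targeted Cd44, with guide 4 in knockout livers 1 and 2 and guide 2 in knockout livers 3 and 4. All groups therefore carried the virus and the nuclease, and cells other than hepatocytes kept an intact Cd44 gene as far as the promoter restricts editing. A liver's number only names it and pairs no livers across groups.

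Total counts lay between 15821198 and 21710228 per liver. Levels are given as CPM, read counts scaled for the depth and composition of each library, and 1 count was worth between 0.0436 and 0.0659 CPM. Hepatocyte marker genes summed to between 90894 and 145143 CPM, so every liver held the hepatocyte transcripts of its label. Cd44 had 14.2, 30.0 and 25.9 CPM in old control livers 1 to 3 and 18.9, 29.0, 17.6 and 13.1 CPM in knockout livers 1 to 4, a log2 difference of -0.25 (SE 0.30, edgeR quasi-likelihood test, adjusted p 0.896). Cd44 counts thus overlapped between the 2 groups of old livers, and every direction given for the knockout rests on the labels. Old control 3 has a library name out of sequence with the rest, so for this liver a separate preparation and biology cannot be told apart. Nothing in the labels says more about how the replicates arose, so p-values measure the spread between these livers. In bulk tissue, fewer dividing cells and less RNA per dividing cell cannot be told apart.

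Most hepatocytes of an adult liver rest outside the cycle and can re-enter it after injury or tissue loss. Cyclin D and cyclin E kinases release the E2F factors, which drive the genes for origin licensing (the Mcm2 to Mcm7 helicase ring), DNA synthesis and nucleotide supply. Later in the cycle the MuvB complex, with Mybl2 and then Foxm1, drives the mitotic genes through a promoter element called the cell cycle genes homology region (CHR), often beside CCAAT boxes bound by NF-Y. Hepatocytes also become polyploid by leaving out cytokinesis, a process in which the repressors E2f7 and E2f8 take part.

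The promoters of these genes were read from RefSeq (build GRCm38.p6), as windows from 250 bases before to 50 bases after each start. An entry was found for 38 of the 47 genes, and none for Ccnd1, Ccne2, Foxm1, Mcm4, Ccna2, Cdc25c, Aurkb, Kif20a and Tpx2. Each window was searched on both strands for the CHR letters TTTGAA or TTCGAA, for CCAAT, and for an E2F string. The E2F strings were TTCCCGC and, with other letters at the middle positions, TTCGCGC. Further E2F strings counted were TTGCCGC and, again with other letters at the middle positions, TTGGCGC. E2F and CCAAT matches can share bases. A CHR match was present in 18 of 22 mitotic genes (81.8%), 2 of 10 S phase genes (20%) and 2 of 6 of the regulators, against 21.7% of the 27025 genes with an entry. CCAAT was present in 19 of 22 mitotic genes (86.4%) and 7 of 10 S phase genes (70%), against 41.1% of all genes. An E2F match was present in 6 of 10 S phase genes (60%) and 3 of 22 mitotic genes (13.6%), against 10.9% of all genes. A match is a string of letters and not evidence of binding.

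Parts of 6 promoters are printed as examples of these matches. Mki67, Top2a and Cdk1 are mitotic genes with CHR and CCAAT matches. Of these, Mki67 and Cdk1 are also among the 3 mitotic genes with an E2F match, so they are not typical of their class. Mcm5 and Mcm6 are helicase genes with E2F and CCAAT matches. Pcna is a replication gene with a CCAAT match and neither a CHR nor an E2F match in its window. Each runs 5′ to 3′ on the strand of its gene, and capitals mark any of the searched motifs on either strand. The printed part of Mki67 is chr7:135716451-135716579 (minus strand), that of Top2a is chr11:99024200-99024389 (minus strand) and that of Cdk1 is chr10:69352913-69353112 (minus strand). Those of Mcm5, Mcm6 and Pcna are chr8:75109309-75109467 (plus strand), chr1:128359706-128359905 (minus strand) and chr2:132253181-132253380 (minus strand).
Mki67: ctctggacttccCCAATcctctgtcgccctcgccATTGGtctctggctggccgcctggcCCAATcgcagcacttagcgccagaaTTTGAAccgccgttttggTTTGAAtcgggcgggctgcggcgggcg
Top2a: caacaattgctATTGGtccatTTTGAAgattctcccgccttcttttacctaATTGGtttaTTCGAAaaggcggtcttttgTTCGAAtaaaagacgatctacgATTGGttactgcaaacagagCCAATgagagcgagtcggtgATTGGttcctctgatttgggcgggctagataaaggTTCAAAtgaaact
Cdk1: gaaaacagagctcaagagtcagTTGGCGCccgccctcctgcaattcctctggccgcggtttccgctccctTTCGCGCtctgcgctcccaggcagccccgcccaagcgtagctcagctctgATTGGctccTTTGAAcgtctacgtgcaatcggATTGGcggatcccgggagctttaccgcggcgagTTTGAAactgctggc
Mcm5: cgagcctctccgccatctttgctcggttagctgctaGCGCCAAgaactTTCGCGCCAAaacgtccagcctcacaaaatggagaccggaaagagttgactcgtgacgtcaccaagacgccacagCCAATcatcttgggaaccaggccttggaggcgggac
Mcm6: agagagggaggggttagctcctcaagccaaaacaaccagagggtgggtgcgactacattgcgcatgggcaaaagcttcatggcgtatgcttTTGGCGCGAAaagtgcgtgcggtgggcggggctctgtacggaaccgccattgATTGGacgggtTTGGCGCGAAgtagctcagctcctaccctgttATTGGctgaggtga
Pcna: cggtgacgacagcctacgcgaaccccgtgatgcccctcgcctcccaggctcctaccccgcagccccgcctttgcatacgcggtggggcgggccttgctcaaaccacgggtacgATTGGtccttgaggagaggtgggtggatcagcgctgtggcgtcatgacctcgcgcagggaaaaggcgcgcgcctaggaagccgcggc
The printed part of Top2a holds 4 CHR and 5 CCAAT matches. That of Mki67 holds 2 CHR and 3 CCAAT matches but not the E2F match of its window, and that of Cdk1 holds 2 of each of the 3 kinds. Mcm6 has 4 E2F matches and Mcm5 has 3, in which forward and reverse letters overlap.

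Mitotic and S phase genes stood at unequal levels in young liver and moved by unequal amounts. The 11 S phase genes summed to 99.0, 95.4 and 89.7 CPM in young control livers 1 to 3, to 97.3, 189 and 136 CPM in old control livers 1 to 3, and to 103, 105, 114 and 119 CPM in knockout livers 1 to 4. The sum of old control 1 lay inside the young range, and those of the other old livers lay above it. The 27 mitotic genes summed to 34.4, 30.1 and 31.9 CPM in the young livers, to 51.2, 155 and 85.9 CPM in the old controls, and to 54.0, 72.3, 90.6 and 101 CPM in the knockout livers. For these genes every old liver lay above every young liver. The S phase to mitotic ratio was 2.88, 3.17 and 2.81 in the young livers, 1.90, 1.22 and 1.59 in the old controls, and 1.91, 1.45, 1.26 and 1.18 in the knockout livers. Every old liver had a lower ratio than every young liver, and the old control and knockout ranges overlapped. A mean of log2 CPM, in which each gene weighs the same, gave an excess of S phase over mitotic genes of 2.58 to 2.69 in young livers, 1.46 to 2.17 in old controls and 1.41 to 2.12 in knockout livers. No test was made of these sums, since the genes were listed with results of these data in view.

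**Figure D1:**
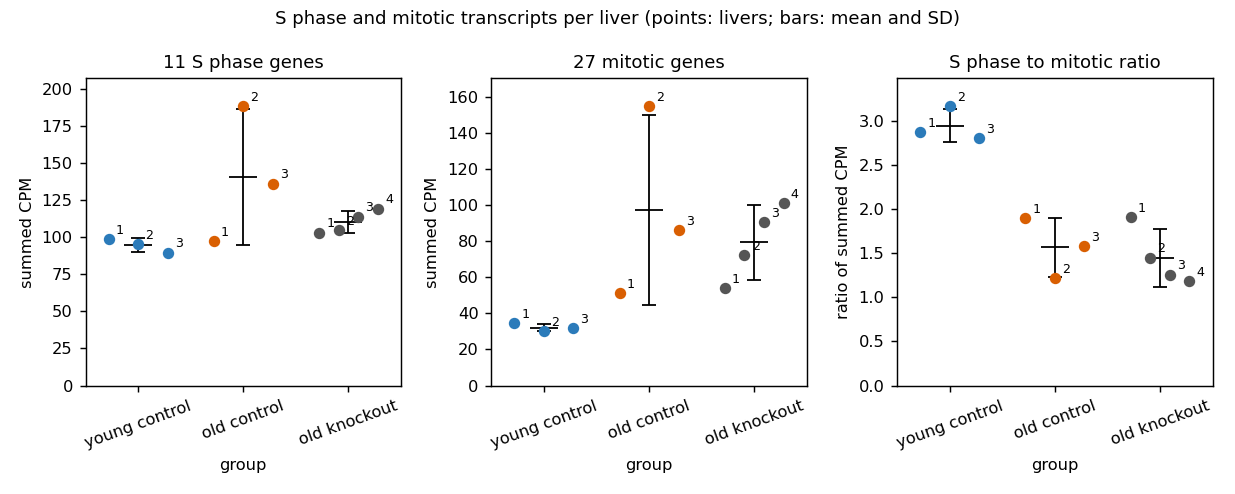
Summed CPM of the 11 S phase genes (left), summed CPM of the 27 mitotic genes (middle) and their ratio (right) by group; each point is 1 liver with its number, and bars give the mean and SD. The mitotic sums of the 7 old livers (51.2 to 155 CPM) lie above those of the 3 young livers (30.1 to 34.4 CPM), while the S phase sums of old control 1 and the young livers overlap.

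Scaled to gene length, the abundant members over all 10 livers were Ccnd1 (13.5 CPM per kb), the cyclin that starts the G1 program, and Pcna (12.0 CPM per kb), the sliding clamp of DNA polymerase. Rrm2, a subunit of ribonucleotide reductase, and Tk1, the cytosolic thymidine kinase, followed at 4.0 and 3.78 CPM per kb. The lowest were Cenpf (0.0529 CPM per kb) and Cdc25c (0.0598 CPM per kb). In the plot of all 47 genes by liver, the old livers differ from the young level most visibly in the mitotic block, in Foxm1 and in part of the Mcm genes.

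**Figure D2:**
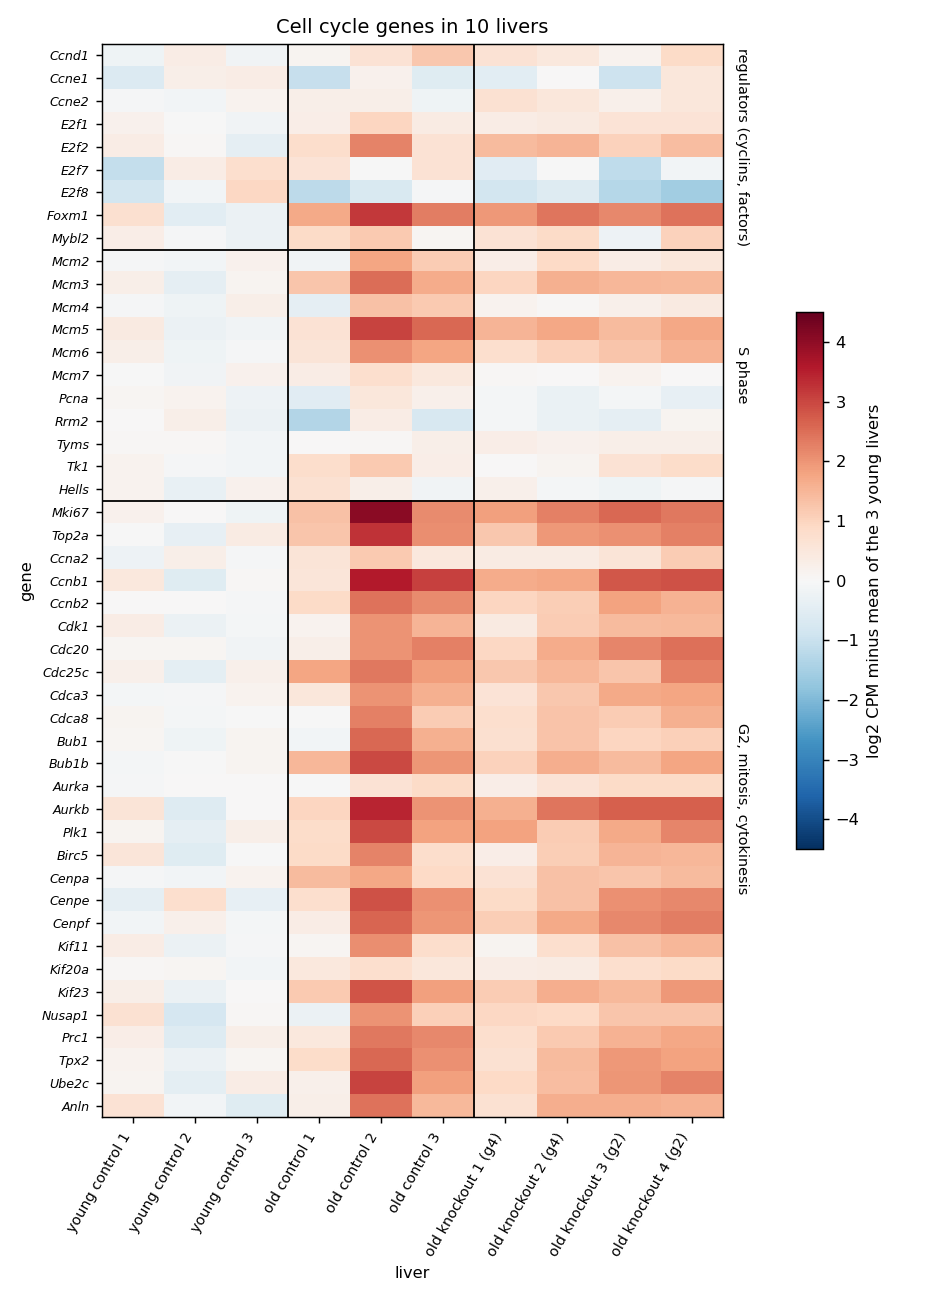
Level of each of the 47 genes (rows, in their 3 classes) in each of the 10 livers (columns), as log2 CPM minus the mean of the 3 young livers, with red above and blue below the young mean. Old control 2 shows the deepest red in most mitotic rows, and old control 1 the palest among the old controls.

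The comparison of old with young control livers asks how the cycle program differs with age. Of the 46 genes tested, 26 were higher with age in edgeR's quasi-likelihood test at a Benjamini-Hochberg adjusted p under 0.05, where 14.1% of all tested genes were called higher. None was lower, where 8.66% of all genes were. The 26 comprised 19 of 26 tested mitotic genes, 5 of 11 S phase genes and 2 of 9 regulators. The median log2 difference was 2.00 over the mitotic genes, 0.80 over the S phase genes and 0.59 over the regulators, against 0.04 over all genes tested. The levels of 27 of the 47 genes did not overlap between the groups, all higher in old livers, where 19.7% of tested genes separated in that direction. The count of called genes hung on single livers, as did the share of all tested genes called higher, given here in brackets. The count was 14 without young control 1 (7.84%), 3 (Foxm1, Mcm3 and Bub1b) without young control 2 (2.02%) and 13 without young control 3 (7.24%). Without old control 2 it was 11, of which 10 were higher and 1 was lower (5.22%). It was 33 without old control 1 (12.8%) and 30 without old control 3 (21.2%). It was also 11 when only these 6 livers entered the fit (5.09%).

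Among the regulators, Foxm1, the forkhead factor of the mitotic program, had 0.734, 0.264 and 0.317 CPM in young livers and 1.57, 4.55 and 2.38 CPM in old controls. The groups did not overlap, and the log2 difference was 2.67 (SE 0.48, edgeR adjusted p 0.00877). Its young values rest on only 12, 4 and 5 counts. Foxm1 kept its call whichever of the 6 livers was left out. E2f2, an activating E2F, had 1.53, 1.25 and 0.887 CPM in young and 2.16, 5.97 and 1.95 CPM in old control livers, a log2 difference of 1.46 (SE 0.43, edgeR adjusted p 0.0344). Old control 2 stood well above the other old livers for E2f2, and without it the log2 difference was 0.75 (edgeR adjusted p 0.132). The other 7 did not pass. Ccnd1 had 40.3, 56.9 and 41.2 CPM in young and 49.3, 71.4 and 105 CPM in old livers (log2 difference 0.71, SE 0.26, edgeR adjusted p 0.0732), with old control 1 inside the young range. Ccne1 and Ccne2, the E cyclins that carry Cdk2 into S phase, had log2 differences of -0.45 (SE 0.46) and 0.12 (SE 0.22). Ccne1 had 1.22, 2.31 and 2.47 CPM in young and 0.884, 2.19 and 1.29 CPM in old control livers, and Ccne2 had 2.94, 2.77 and 3.42 CPM in young and 3.64, 3.64 and 2.62 CPM in old control livers. The groups overlapped for both cyclins. E2f1 had 0.59 (SE 0.23) and Mybl2, which starts mitotic gene expression with MuvB, had 0.85 (SE 0.45).

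The atypical E2F repressors were spread widely within the young group. E2f8 had 8.81, 14.3 and 30.3 CPM in young livers, with young control 3 well above the others, and 6.93, 9.75 and 15.2 CPM in old controls. E2f7 had 0.551, 1.65 and 2.22 CPM in young and 2.01, 1.28 and 2.05 CPM in old control livers. The groups overlapped for both genes, and the log2 differences were -0.74 (SE 0.43, edgeR adjusted p 0.225) for E2f8 and 0.28 (SE 0.47, edgeR adjusted p 0.698) for E2f7. E2f8 was higher per length than most members in young liver, at 3.27 CPM per kb, where Mki67 had 0.111.

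The S phase genes split. Mcm5 had 1.71, 1.06 and 1.14 CPM in young and 2.06, 11.4 and 8.20 CPM in old livers, a log2 difference of 2.46 (SE 0.51, edgeR adjusted p 0.0108). Mcm3 had 3.0, 1.85 and 2.72 CPM in young and 5.99, 14.5 and 8.11 CPM in old livers (log2 difference 1.91, SE 0.33, edgeR adjusted p 0.00819). Mcm6 had 4.47, 3.23 and 3.55 CPM in young and 5.65, 15.8 and 13.1 CPM in old livers (log2 difference 1.62, SE 0.35, edgeR adjusted p 0.0124). All 3 encode subunits of the replicative helicase, and for each of them old control 1 was the old liver nearest to the young range. Of their partners in the ring, Mcm7 rose by a log2 difference of 0.52 (SE 0.15, edgeR adjusted p 0.0292), and Mcm2 (1.14, SE 0.40, edgeR adjusted p 0.0592) and Mcm4 (0.87, SE 0.36, edgeR adjusted p 0.100) did not pass. Mcm2 had 3.73, 3.56 and 4.5 CPM in young livers, and old control 1, at 3.49 CPM, was below them while old controls 2 and 3 had 13.8 and 8.68 CPM.

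Tk1 had 16.2, 13.7 and 13.2 CPM in young and 25.1, 32.3 and 17.5 CPM in old control livers, a log2 difference of 0.80 (SE 0.26, edgeR adjusted p 0.0456). The other genes of DNA synthesis did not pass. Pcna had 31.0, 32.9 and 25.2 CPM in young and 20.5, 41.7 and 34.7 CPM in old livers, with a log2 difference of 0.12 (95% interval -0.36 to 0.60). Rrm2 had 12.7, 14.8 and 10.3 CPM in young and 4.91, 15.8 and 7.49 CPM in old livers, with a log2 difference of -0.42 (95% interval -1.18 to 0.33). For Pcna and Rrm2 the old controls lay on both sides of the young range. Tyms, the thymidylate synthase, stayed between 6.02 and 7.82 CPM in all 6 control livers (log2 difference 0.12, 95% interval -0.21 to 0.44). Hells, a chromatin remodeller of S phase, had a log2 difference of 0.30 (95% interval -0.42 to 1.02).

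The mitotic genes carried the largest differences. Mki67, which encodes the proliferation antigen Ki-67 (chr7:135689784-135716361, GRCm38), had 1.28, 1.12 and 0.950 CPM in young and 2.90, 20.4 and 5.20 CPM in old control livers. These rest on 21, 17 and 15 counts in young and 59, 449 and 109 counts in old livers, and the log2 difference was 3.08 (SE 0.64, edgeR adjusted p 0.0110). The groups did not overlap, and old control 2 had 5.05 times the mean of the other 2 old controls. Without that liver the log2 difference was 1.85 (SE 0.33, edgeR adjusted p 0.0239). Top2a, the topoisomerase that untangles chromosomes, had 1.04, 0.791 and 1.39 CPM in young and 2.65, 10.8 and 4.77 CPM in old livers (log2 difference 2.5, SE 0.50, edgeR adjusted p 0.0104). Its order of old livers was that of Mki67.

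The kinases and cyclins of mitotic entry were less even. Ccnb1, the cyclin of the mitotic kinase, had 0.367, 0.132 and 0.253 CPM in young (only 6, 2 and 4 counts) and 0.393, 3.96 and 2.81 CPM in old livers. The log2 difference was 3.21 (SE 0.80, edgeR adjusted p 0.0197). Old control 1 was barely above the young livers, so the difference rests on old controls 2 and 3. Cdk1, the mitotic kinase itself, had 2.08, 1.32 and 1.52 CPM in young and 1.82, 6.92 and 4.91 CPM in old livers (log2 difference 1.47, SE 0.46, edgeR adjusted p 0.0403), and the groups overlapped through old control 1. Ccnb2 rose by 2.08 (SE 0.43, edgeR adjusted p 0.0113), and Plk1, a kinase of spindle assembly, by 2.29 (SE 0.55, edgeR adjusted p 0.0175). Ccna2, the cyclin of S and G2 phase, did not pass (0.78, SE 0.27, edgeR adjusted p 0.0557), although its groups did not overlap. Cdc25c had 1, 0 and 1 counts in young livers and 8, 14 and 9 counts in old controls, and it was not tested.

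Genes of the spindle checkpoint and chromosome segregation followed. Bub1b, the checkpoint kinase BubR1, had 0.367, 0.396 and 0.443 CPM in young and 1.33, 3.92 and 1.91 CPM in old livers, a log2 difference of 2.55 (SE 0.46, edgeR adjusted p 0.00877). The young livers were close together but had only 6, 6 and 7 counts. Each old liver was above them, and the call held whichever liver was left out. Aurkb, the kinase of the chromosomal passenger complex, had 0.428, 0.132 and 0.253 CPM in young (only 7, 2 and 4 counts) and 0.589, 3.73 and 1.34 CPM in old livers (log2 difference 2.76, SE 0.71, edgeR adjusted p 0.0214). Birc5 (survivin), its partner, had 2.39, 1.06 and 1.58 CPM in young and 3.0, 7.88 and 2.81 CPM in old livers (1.44, SE 0.48, edgeR adjusted p 0.0518), and did not pass. Cenpa, the centromeric histone, rose by 1.44 (SE 0.28, edgeR adjusted p 0.00977) and Kif23, a motor of the midzone, by 2.30 (SE 0.47, edgeR adjusted p 0.0107). Also higher were Cdc20, Cdca3, Bub1, Cenpe, Cenpf, Kif20a, Prc1, Tpx2 and Ube2c. For Bub1 and Ube2c the groups overlapped through old control 1, at 0.147 and 1.13 CPM, and Bub1 had only 3 counts in that liver. The mitotic genes that did not pass, beside Ccna2 and Birc5, were Cdca8, Aurka, Kif11, Nusap1 and Anln, with log2 differences between 0.57 and 1.72. Of the mitotic genes with a promoter entry, 16 were higher with age and 6 did not pass. The CHR letters were present in 14 of the 16 and 4 of the 6, and CCAAT in 16 of the 16 and 3 of the 6. Of the S phase genes with an entry, 5 were higher and 5 did not pass. The E2F letters were present in 4 of the higher genes, Mcm5 and Mcm6 among them, and in 2 of the others. CCAAT was present in 4 of the higher genes and 3 of the others.

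**Figure D3:**
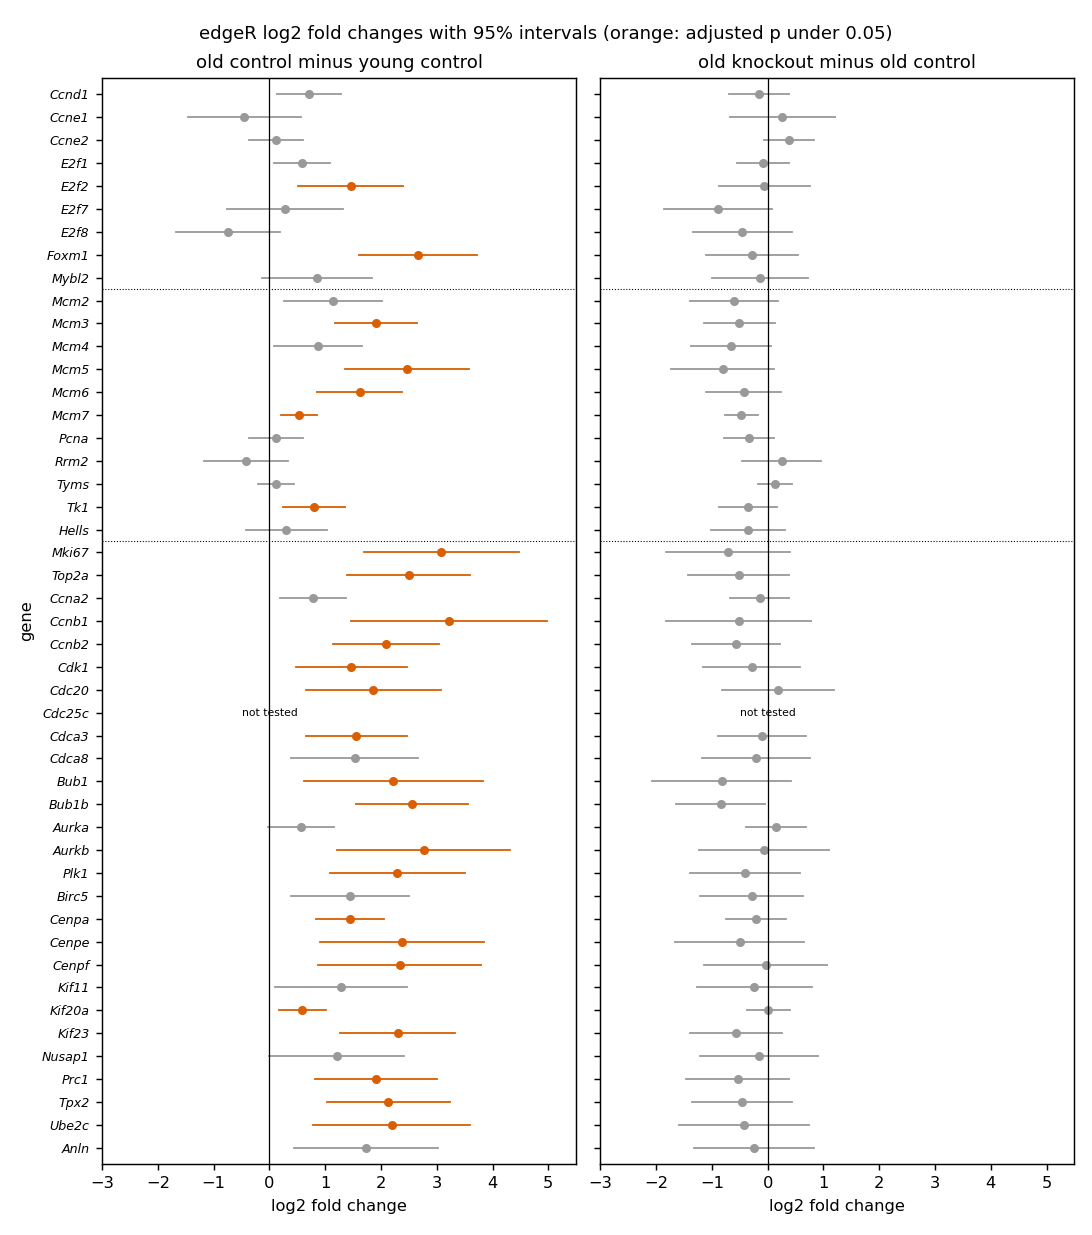
Fitted log2 fold change (point) and 95% interval (line) of each of the 47 genes for old minus young control (left) and old knockout minus old control (right); orange marks an adjusted p under 0.05 and Cdc25c was not tested. The left panel holds 26 orange genes, all to the right of 0, and the right panel holds 0.

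Members with exons that overlap those of another gene carry an uncertainty, since the use of strand in counting is not given in the sources used here. In GENCODE M21 this touches 17 of the 47 genes, the most for Kif20a, of whose exonic bases 29.3% are shared with Cdc23 on the other strand. The share was 23.4% for Ccnd1, 22.8% for Ube2c, 17.4% for Ccne2, 12.7% for Cdc25c and 12.5% for Ccna2. Mcm7 shared 7.25% with Ap4m1 and 1.45% with Cops6 on the other strand, and 1.9% with Mir25 and 1.99% with Mir93 on its own. Kif20a had the smallest log2 difference (0.59) among the mitotic genes that passed.

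Other genes of the same pathway, listed with these results known, moved in the same comparison as follows. Of 35 tested replication and repair genes, 15 were higher and 0 lower in old controls, where 14.1% and 8.66% of all tested genes were. Among the 15 were Uhrf1, which maintains DNA methylation at forks (log2 difference 2.77, SE 0.70, edgeR adjusted p 0.0203), and Cdc7, a kinase that fires origins (log2 difference 1.97, edgeR adjusted p 0.0469). Uhrf1 had 0.551, 0.264 and 1.08 CPM in young and 1.57, 9.11 and 2.38 CPM in old livers, again with old control 2 far above the rest. Of 53 tested mitosis genes, 23 were higher and 1 was lower, beside the same shares of all genes. The largest fitted differences were those of Kif15, Troap and Ndc80, but no young liver had more than 2 counts of any of them, so no fold is given. Ccnf (cyclin F), the gene that was lower, had 34.9, 41.0 and 32.8 CPM in young and 15.4, 17.4 and 18.7 CPM in old livers (log2 difference -1.07, SE 0.16, edgeR adjusted p 0.00667). Of 24 other cyclins, kinases and E2F genes, 4 were higher (Cdc25b, Pkmyt1, Wee1 and Cdk2) and 2 were lower (Lin52 and Cdk7), close to the shares of all genes. Cdc25b, a phosphatase that acts at mitotic entry, differed by 1.86 (SE 0.38, edgeR adjusted p 0.0107) and Pkmyt1 and Wee1, kinases that hold Cdk1 back, by 1.30 (SE 0.31, edgeR adjusted p 0.0174) and 1.02 (SE 0.31, edgeR adjusted p 0.0375).

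Of 20 genes that restrain the cycle, 3 were higher (Cdkn2a, Rbl1 and Cdkn2d) and 1 was lower in old controls, shares near those of all genes (14.1% and 8.66%). The lower one was Cdkn1a (p21), a kinase inhibitor, with 85.3, 157 and 77.3 CPM in young and 27.5, 34.0 and 20.1 CPM in old livers (log2 difference -1.97, SE 0.28, edgeR adjusted p 0.00667). Every young liver was above every old liver for Cdkn1a. Cdkn2a, which encodes p16 and p19Arf, had 1 count in each young liver and 12, 6 and 12 counts in old controls (edgeR adjusted p 0.0123), too few for a fold.

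Old control 2 was the highest of all 10 livers for 37 of the 47 genes, comprising 24 of 27 mitotic genes, 9 of 11 S phase genes and 4 of 9 regulators. Its level was 2.52 times the mean of the other old controls at the median mitotic gene, 1.66 times at the median S phase gene and 1.56 times at the median regulator. Old control 1 was the lowest old control for 38 of the 47 genes. Without old control 2, 10 genes were higher with age (Foxm1, Mcm3, Mcm5, Mcm6, Mki67, Top2a, Ccnb2, Bub1b, Cenpa and Kif23), all of them also called with every liver, where 5.22% of all genes were called higher. Rrm2 was then lower, with a log2 difference of -1.02 (SE 0.25, edgeR adjusted p 0.0382). The median mitotic difference fell from 2.00 to 1.43 and the median S phase difference from 0.80 to 0.56, so the mitotic genes remained the further from 0.

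**Figure D4:**
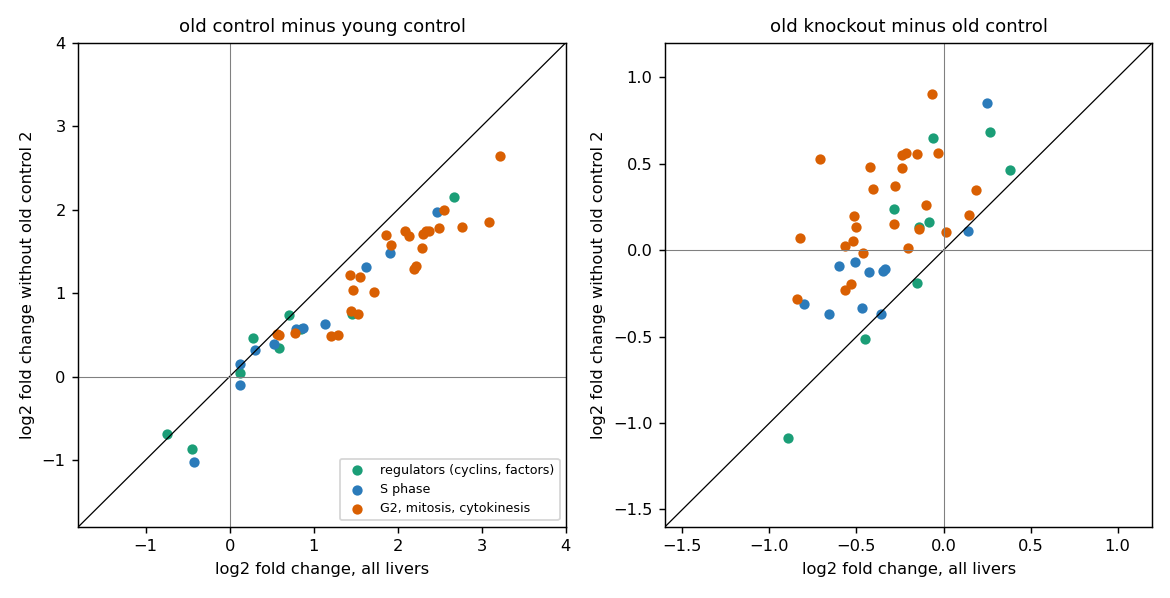
Fitted log2 fold change of each tested gene with all livers (x axis) and without old control 2 (y axis), for old minus young control (left) and old knockout minus old control (right); colours give the 3 classes and the line marks equal values. On the left nearly all points stay above 0, and on the right most mitotic points move from below to above 0.

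Markers of blood and immune cells moved with the same liver. Of 12 markers of granulocyte precursors and neutrophils, 6 were abundant enough to test and 4 were higher in old controls, where 14.1% of all tested genes were. Their summed level was 6.14 to 13.0 CPM in young livers, 17.5, 317 and 29.0 CPM in old controls 1 to 3 and 9.45 to 25.1 CPM in knockout livers. Mpo had 694 counts in old control 2 and at most 29 in any other liver, and Ctsg, Camp, Ltf, Fcnb and Ly6g were at 0 in every young liver. Megakaryocyte markers, of which 3 of 7 tested were higher, summed to 14.3 to 22.4 CPM in young livers, 29.4, 128 and 33.4 CPM in old controls and 18.1 to 29.1 CPM in knockout livers. Kupffer cell markers, of which 8 of 10 were higher, summed to 263 to 365 CPM in young livers, 507, 1596 and 943 CPM in old controls and 476 to 819 CPM in knockout livers. Erythroid precursor markers had a mean log2 CPM of 2.67 in old control 2 and of -0.79 and -0.89 in old controls 1 and 3. That mean was -1.19 to -0.93 in young and -0.76 to -0.45 in knockout livers. Their sum in old control 2, 143 CPM, was within the 120 to 168 CPM of young livers.

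B cell markers followed another order, with 7 of 10 higher and sums of 3.48 to 6.0 CPM in young livers, 27.4, 24.0 and 8.77 CPM in old controls and 20.9 to 34.7 CPM in knockout livers. T cell markers, of which 4 of 9 were higher, had 5.0 to 6.53 CPM in young, 11.5, 52.2 and 6.63 CPM in old control and 12.4 to 29.3 CPM in knockout livers. Markers of blood stem and progenitor cells, of which 3 of 8 were higher, had 18.9 to 24.9 CPM in young, 38.6, 81.4 and 43.9 CPM in old control and 36.0 to 48.9 CPM in knockout livers. Gfi1b and Hoxa9 of this list were at 0 in every young and every knockout liver. Among the remaining lists, 10 of 12 endothelial, 7 of 12 stellate and fibroblast, 6 of 12 monocyte and macrophage, 2 of 4 erythroid, 1 of 8 cholangiocyte, 1 of 4 plasma cell and 1 of 5 NK cell markers were higher, and 2 of 11 hepatocyte markers and 1 erythroid marker were lower, where 14.1% of all tested genes were higher and 8.66% lower. The part of any of these cells in the differences of the cycle genes was not tested.

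**Figure D5:**
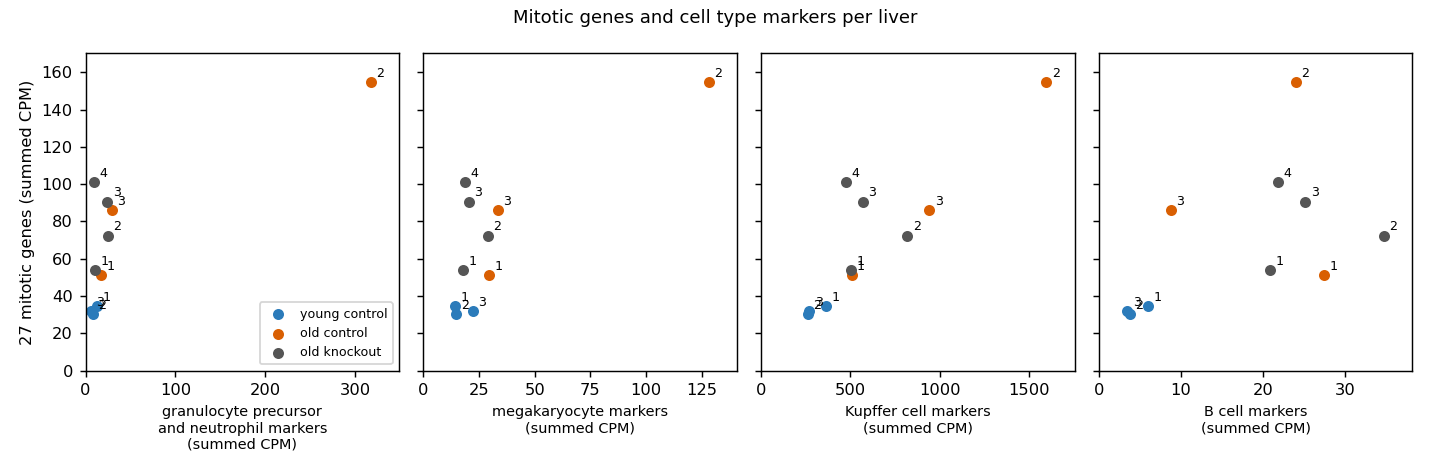
Summed CPM of the 27 mitotic genes (y axis) against the summed CPM of 4 marker lists (x axes), with 1 point per liver coloured by group and numbered. Old control 2 stands apart in the granulocyte, megakaryocyte and Kupffer cell panels, while the other 9 livers range from 30.1 to 101 CPM of mitotic genes at 6.14 to 29.0 CPM of granulocyte markers.

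The knockout comparison asks whether loss of Cd44 in hepatocytes alters the cycle program of the old liver. No member passed the edgeR quasi-likelihood test between livers labelled knockout and old controls, where 0% of all genes passed, and the lowest edgeR adjusted p among the members was 0.744. At an unadjusted p under 0.05 there were 2 members, where 6.59% of all genes were, and DESeq2 called 0 members and 7 genes of all. The fitted difference was below 0 for 39 of the 46 genes, with a median of -0.28 over the mitotic genes and -0.43 over the S phase genes, against -0.02 over all genes. Without old control 2 it was below 0 for 16 of the 46, and the medians were 0.20 and -0.12. The sign of the mitotic median thus turned on 1 control liver, and its size also moved with other livers and with the guide. It was -0.65 without old control 1, -0.05 with guide 2 livers alone and -0.70 with guide 4 livers alone.

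Mcm7, 1 of the 2 members with an unadjusted p under 0.05, had 18.1, 24.5 and 20.1 CPM in old controls and 15.2, 14.8, 16 and 14.5 CPM in knockout livers, whose values resemble the 14.2, 12.9 and 16.7 CPM of young livers. All knockout livers were below all old controls, and the log2 difference was -0.47 (95% interval -0.77 to -0.17, edgeR adjusted p 0.744). E2f7 was the other gene of the 47 whose groups did not overlap, with 2.01, 1.28 and 2.05 CPM in old controls and 0.871, 1.26, 0.518 and 1.17 CPM in knockout livers (log2 difference -0.89, 95% interval -1.86 to 0.08). These 2 genes compare with 3.26% of all tested genes that separated in that direction and with 2.84%, and 0 members, in the other. Bub1b, the other member with an unadjusted p under 0.05, had 0.929, 1.48, 1.27 and 1.63 CPM in knockout livers (log2 difference -0.84, 95% interval -1.64 to -0.04, edgeR adjusted p 0.748). Its old controls at 1.33 and 1.91 CPM overlapped these values, and old control 2 at 3.92 CPM was above them.

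Mki67 had 4.24, 5.71, 7.11 and 6.24 CPM in knockout livers 1 to 4, between old control 1 (2.90 CPM) and old control 2 (20.4 CPM). The log2 difference was -0.71 (95% interval -1.82 to 0.40) with all livers and 0.53 without old control 2. Top2a had 2.56, 4.40, 4.66 and 5.42 CPM in knockout livers, and its log2 difference went from -0.51 (95% interval -1.42 to 0.39) to 0.20. Foxm1 had 1.86, 2.62, 2.17 and 2.68 CPM, and its difference went from -0.28 (95% interval -1.11 to 0.54) to 0.24. For these 3 genes the knockout livers lay within the range of the old controls, except that knockout liver 1 was just below it for Top2a, and each interval includes 0. Among the S phase genes, Mcm5 (3.89, 4.53, 3.62 and 4.49 CPM in knockout livers) had -0.80 (95% interval -1.73 to 0.12), Mcm4 had -0.66 (95% interval -1.38 to 0.06) and Mcm2 had -0.60 (95% interval -1.38 to 0.18). The sign of these 3 was the same without old control 2, at -0.31, -0.37 and -0.09. The D and E cyclins were at -0.15 (95% interval -0.69 to 0.38) for Ccnd1, 0.27 (95% interval -0.68 to 1.21) for Ccne1 and 0.38 (95% interval -0.06 to 0.83) for Ccne2. 

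The other genes of entry into S phase and mitosis gave the same picture of overlap. Ccnd1 had 72.4, 64.0, 51.4 and 82.7 CPM in knockout livers 1 to 4, Ccne1 had 1.34, 1.96, 0.942 and 2.80 CPM and Ccne2 had 5.0, 4.32, 3.58 and 4.37 CPM. Pcna had 27.7, 24.2, 27.4 and 23.0 CPM (log2 difference -0.34, 95% interval -0.78 to 0.11) and Rrm2 had 11.8, 10.0, 9.51 and 13.5 CPM (log2 difference 0.25, 95% interval -0.46 to 0.96). Both genes lay inside the wide range of the old controls in all 4 livers. Cdk1 had 2.15, 3.66, 4.52 and 4.61 CPM (log2 difference -0.29, 95% interval -1.16 to 0.59) and Birc5 had 1.97, 3.53, 4.80 and 4.72 CPM (log2 difference -0.28, 95% interval -1.20 to 0.64), with knockout liver 1 lowest for both. Ccnb2 had 1.51, 1.66, 2.78 and 2.33 CPM in knockout and 1.38, 4.33 and 3.48 CPM in old control livers (log2 difference -0.56, 95% interval -1.36 to 0.23). Kif23 had 1.22, 1.79, 1.55 and 2.22 CPM in knockout and 1.28, 4.19 and 2.05 CPM in old control livers (log2 difference -0.57, 95% interval -1.40 to 0.27). For both genes old control 2 was above all knockout livers and old control 1 near their lowest. In the same comparison 6.59% of all tested genes had an unadjusted edgeR p under 0.05. Among cell markers these were 5 of 6 tested granulocyte, 5 of 7 megakaryocyte, 4 of 10 Kupffer cell, 9 of 12 endothelial and 3 of 12 stellate and fibroblast markers. The remaining marker lists had 0 to 2 each, and 0 markers of any list passed after adjustment. Every tested marker of the 5 lists named here had a fitted difference below 0. Old control 2 had the highest granulocyte and megakaryocyte sums of all livers, at 317 and 128 CPM. None of the 4 lists of other pathway genes had a member past the test, and Cdkn1a had 0.38 (95% interval -0.18 to 0.94).

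Old knockout livers were also set against young controls, which are the same 3 livers as in the age comparison, so the results of the 2 comparisons are not independent. Here 17 of 46 genes were higher, where 6.64% of all genes were, and 0 were lower, where 4.97% were. At an unadjusted p under 0.05 there were 32 members, where 33.3% of all genes had one. The 17 were Foxm1, Mcm3, Mcm5, Mcm6 and 13 of 26 tested mitotic genes, and the median log2 difference was 1.5 over the mitotic and 0.26 over the S phase genes. The levels of 34 of the 47 genes, 25 of the 27 mitotic genes among them, did not overlap and were higher in knockout livers, where 21.1% of all tested genes separated that way. The count of called genes was 0 without young control 2 or 3, where 0.18% and 0.568% of all tested genes were called higher. It was 1 without young control 1 or knockout liver 2, 3 or 4, where 1.12% to 1.5% were called higher. With only these 7 livers in the fit the count was 31 (30 higher, 1 lower), where 16.5% of all tested genes were called higher.

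Foxm1 differed by 2.38 (SE 0.47, edgeR adjusted p 0.0178) and Mki67 by 2.37 (SE 0.61, edgeR adjusted p 0.0352) between knockout and young livers. Aurkb, at 0.987, 1.79, 2.21 and 2.22 CPM in knockout livers, differed by 2.69 (SE 0.69, edgeR adjusted p 0.0344), and Ccnb1, at 0.987, 1.05, 2.26 and 2.39 CPM, by 2.69 (SE 0.78, edgeR adjusted p 0.0484). Cdc20, the activator of the anaphase-promoting complex, had 0.856, 0.857 and 0.697 CPM in young and 1.63, 2.75, 4.0 and 4.96 CPM in knockout livers (log2 difference 2.04, SE 0.53, edgeR adjusted p 0.0356). Every knockout liver was above every young liver for all 5 genes. Mcm3 had 4.94, 7.72, 7.2 and 6.94 CPM in knockout livers (log2 difference 1.41, SE 0.32, edgeR adjusted p 0.0261) and Mcm6 had 6.39, 7.81, 8.99 and 11.1 CPM (log2 difference 1.19, SE 0.33, edgeR adjusted p 0.0431). Cenpf, a kinetochore protein, had 0.184, 0.264 and 0.190 CPM in young and 0.581, 0.916, 1.32 and 1.46 CPM in knockout livers (edgeR adjusted p 0.0443). Mcm7 (0.05, 95% interval -0.25 to 0.36), Pcna (-0.22, 95% interval -0.66 to 0.23) and Rrm2 (-0.17, 95% interval -0.88 to 0.53) did not pass. E2f8 had 8.77, 10.6, 6.40 and 5.25 CPM in knockout livers, with a log2 difference of -1.20 (SE 0.40, edgeR adjusted p 0.0704) from young livers. Among the other pathway genes, 8 of 35 replication and repair genes, 7 of 53 mitosis genes, 2 of 24 cyclins and kinases and 2 of 20 restraining genes were higher, and 1 in each of the last 3 lists was lower. Of all tested genes 6.64% were higher and 4.97% lower, and the last 2 lists were near these shares. The lower genes were Ccnf (-0.94, SE 0.15, edgeR adjusted p 0.00938), Cdk7 and Cdkn1a (-1.59, SE 0.25, edgeR adjusted p 0.00938).

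The 2 guides were compared within the knockout group, 2 livers each. No member passed, where 0.0216% of all genes did, and 2 members (Tk1 and Kif20a) had an unadjusted p under 0.05, where 4.34% of all genes had one, while DESeq2 called 0 members. The mitotic genes were lower with guide 4 in 25 of 26 tested, with a median log2 difference of -0.58, while the S phase median was -0.03 and that of all genes 0.00. The guides did not overlap for 23 genes that were lower with guide 4, 19 of them mitotic, where 20.4% of tested genes separated that way, and for 2 that were higher, where 18.1% did. Cdc20 had 1.63 and 2.75 CPM in the livers given guide 4, against 4.0 and 4.96 CPM after guide 2 (log2 difference -1.02, 95% interval -2.24 to 0.20). Cdca3, a trigger of mitotic entry, had 2.38 and 3.66 CPM after guide 4, and 5.18 and 5.48 CPM after guide 2. The guides did not overlap for either gene. Tk1 had 14.4 and 15.8 CPM after guide 4, and 22.5 and 25.7 CPM after guide 2 (log2 difference -0.67, 95% interval -1.23 to -0.12, edgeR adjusted p 0.939). Kif20a, a motor of cytokinesis, had 6.51 and 6.67 CPM after guide 4, and 8.85 and 9.51 CPM after guide 2 (log2 difference -0.48, 95% interval -0.91 to -0.04). E2f8 went the other way, with 8.77 and 10.6 CPM after guide 4, and 6.40 and 5.25 CPM after guide 2 (log2 difference 0.73, 95% interval -0.42 to 1.88). Knockout liver 1 (guide 4) was the lowest of the knockout livers for 24 of 27 mitotic genes and knockout liver 4 (guide 2) the highest for 19, so the order of the guides and that of single livers cannot be told apart.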

How the data were processed

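The deposited values are raw read counts, 1 column for each of 10 livers and 1 row per gene symbol, with no normalization. Per the submitters' processing notes, FastQC 0.11.8, Trim Galore 0.4.4, STAR 2.5.3a and HOMER were used with mm10. Which annotation was counted, and whether strand was used, is not given in the sources used here. Polyadenylated RNA was sequenced as paired reads of 75 bases, per the labels' protocols.

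Counts were tested with edgeR 4.0.16 in R 4.3.3 (quasi-likelihood test, TMM factors, filterByExpr with a minimum count of 10 and a minimum total of 15, 1 coefficient per group over all 10 livers; 4 groups for the guides), which left 13909 genes over which p-values were adjusted by Benjamini-Hochberg. SE is the size of the log2 difference divided by the square root of F, intervals are 95%, and log2 CPM had a prior count of 2. Depth lay between 15821198 and 21710228 counts per liver, the biological coefficient of variation was 21.8%, and 3 counts, the floor of detection, were 0.131 to 0.198 CPM, which covers counting error only. Lengths are exon unions of GENCODE M21 on GRCm38, and promoters came from RefSeq GRCm38.p6. The fit was tested on simulated data.

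The genes and lists were chosen with earlier results of these data known. Values per liver are given for Mki67, Top2a, Cdk1, Ccnd1, Ccne1, Ccne2, Pcna, Mcm2, E2f7, E2f8, Foxm1, Rrm2 and Birc5, and by class for up to 5 called genes with the largest change in each direction or, where none was called, the 3 with the smallest p. Of each other pathway list up to 3 called genes in each direction are named. All 47 genes are accounted for, and Cdk2 and the members that this rule does not select were chosen for mention after their values were seen. Alternatives were size factors as in DESeq2 (version 1.42.0), no filter on low counts, DESeq2 itself, only the groups compared, each liver left out and each guide alone.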

Additional observations from a re-analysis of the deposited data

Results flagged for a closer look

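Each member and each of the 4 summed levels was checked for a liver that stands apart in the 4 knockout livers, 51 checks in all. Chance flags about 1 in 20 groups, or 2.55 of 51, and 1 was found. Anln, which encodes the cytokinesis scaffold anillin, had 0.871 CPM in knockout liver 1 and 1.69 to 1.79 CPM in the other 3. The gap between the lowest liver and the next was 0.894 of the whole range.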

How the results depend on the processing

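No paired analysis was possible because replicate numbers here only follow the order of records and tie no livers together. The called genes for old minus young control were 26, and 24 with DESeq2 size factors, 25 without the filter, 32 by DESeq2 and 11 when other groups were kept out of the fit. With each liver left out in turn they ranged from 3 to 33. The share of all tested genes called higher ranged from 2.02% to 21.2% over those fits. In the settings before them it was 14.1%, 13.9%, 9.81%, 15.8% and 5.09%, in the order given. For knockout minus young control the count was 17, and 14, 18, 23 and 31 in the same order, and from 0 to 16 with livers left out. The 23 and the 31 each included 1 lower gene. The share of all tested genes called higher was 6.64%, 6.18%, 4.69%, 9.85% and 16.5% in the same order. In those fits with livers left out, 0.18% to 6.23% of all tested genes were called higher. The count was 0 for knockout minus old control and for the guides in every setting run. The cause of these moves was not tested. Some log2 differences of named genes, none past the test with all livers, changed sign when 1 liver was left out, and their ranges over these fits follow. With age, E2f7 went from -0.12 (without young control 1) to 0.70, and Pcna from -0.11 (without old control 2) to 0.36. For knockout minus old control the upper end, reached without old control 2, was 0.53 for Mki67 (lowest -1.14), 0.20 for Top2a (-0.87), 0.15 for Cdk1 (-0.66), 0.24 for Foxm1 (-0.57), 0.37 for Birc5 (-0.53) and 0.025 for Kif23 (-0.88). Rrm2 went from -0.058 (without old control 1) to 0.85, Ccnd1 from -0.38 to 0.16 (without old control 3) and Ccne1 from -0.039 (without knockout liver 4) to 0.69. With guide 2 livers alone Cdk1 had 0.0015 and Birc5 0.059. For knockout minus young control, Ccne1 went from -0.49 to 0.017 (without knockout liver 3). The mean log2 level of the mitotic genes in knockout minus old control livers was -0.15, and 0.28 without old control 2, and that of the S phase genes was -0.27, and -0.0093 without it. Low counts limit the mitotic genes in young livers, where Bub1 had 2 or 3 counts, Cenpf 3 or 4, Ccnb1 2 to 6 and Aurkb 2 to 7. Bub1b had 6 or 7 counts there, and Foxm1, a regulator, had 4 to 12.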
